A study of Mus musculus with 8 samples.

Results

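Transcripts of 10 antioxidant enzymes were followed in 8 libraries of mouse tongue. The members were chosen as a list of genes (Sod1, Sod2, Cat, Gpx1, Gpx4, Prdx1, Prdx2, Prdx3, Prdx5 and Txn2), and all 10 were found among the 19857 genes of the count table. The tissue came from female mice aged 12 months. In one group (A17/+, n = 4) the mice carried the A17 allele of PABPN1, a nuclear protein that binds poly(A) tails, beside a normal allele, and the other group was wild type (WT, n = 4). The A17 allele models oculopharyngeal muscular dystrophy (OPMD), in which eyelid, throat and tongue muscles weaken late in life. The labels name no other allele and no treatment, and RNA was taken from 40 cryosections of the median part of each tongue. These are whole-tissue libraries, so fewer cells of a type and less RNA per cell cannot be told apart. The counts come from the 3' ends of transcripts and do not read the altered stretch of PABPN1, so the genotype labels were not checked here.

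Cells of working muscle produce superoxide, in part at the respiratory chain. Superoxide dismutases turn it into hydrogen peroxide, which catalase, glutathione peroxidases and peroxiredoxins then remove. Glutathione peroxidases and peroxiredoxins do so with thioredoxin or glutathione as the source of electrons. The enzymes are spread over compartments. Sod2, Prdx3 and Txn2 act in the mitochondrial matrix, Prdx5 acts there and in the cytosol and peroxisomes, and Cat acts in peroxisomes. Sod1, Prdx1 and Prdx2 are mainly cytosolic, and so are Gpx1 and Gpx4, which also have mitochondrial forms. The members were therefore compared as 4 mitochondrial, 5 cytosolic and 1 peroxisomal gene.

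Libraries held 205696 to 465014 molecules in WT and 395061 to 485326 in A17/+. Levels below are CPM, counts scaled to each library's total over the genes that passed the count filter. That total was adjusted by the trimmed mean of M-values (TMM). The filter's own level of 24.6 CPM is on whole library totals, a slightly different scale. Each count is 1 tagged molecule, so a level does not grow with transcript length. At this depth 10 CPM is a handful of molecules, and most members lay between 10 and 150 CPM. All 12 skeletal muscle markers were present, at 8.03% to 10.9% of the scaled counts in WT and 11.0% to 12.8% in A17/+. WT 1 held salivary gland transcripts (2055 CPM over 5 markers, against at most 57.0 CPM in any other library). A17/+ 1 lay near WT for many members, and its values are given with each gene.

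Transcripts of the 4 mitochondrial members were all higher in A17/+ than in WT, and so were those of Sod1 and Prdx1. Of the 10 members, 8 had enough counts to be tested with edgeR's quasi-likelihood test, 6 rose and 0 fell at an adjusted p (Benjamini-Hochberg over 5066 genes) under 0.05. Among all genes tested, 6.34% were higher at that threshold, 2.61% were lower and 8.94% changed in either direction. Txn2 and Prdx1 reached the filter of 24.6 CPM in 4 libraries through the A17/+ libraries alone, so the count of 6 is a description of these genes and no support for a change of the group. Over all 10 members, in a fit without the count filter, the log2 fold change (A17/+ minus WT) ran from 0.41 to 2.50 with a median of 1.49, and the median over all genes in that fit was 0.15. In the 5066 genes of the filtered fit the median was 0.01.

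**Figure D1:**
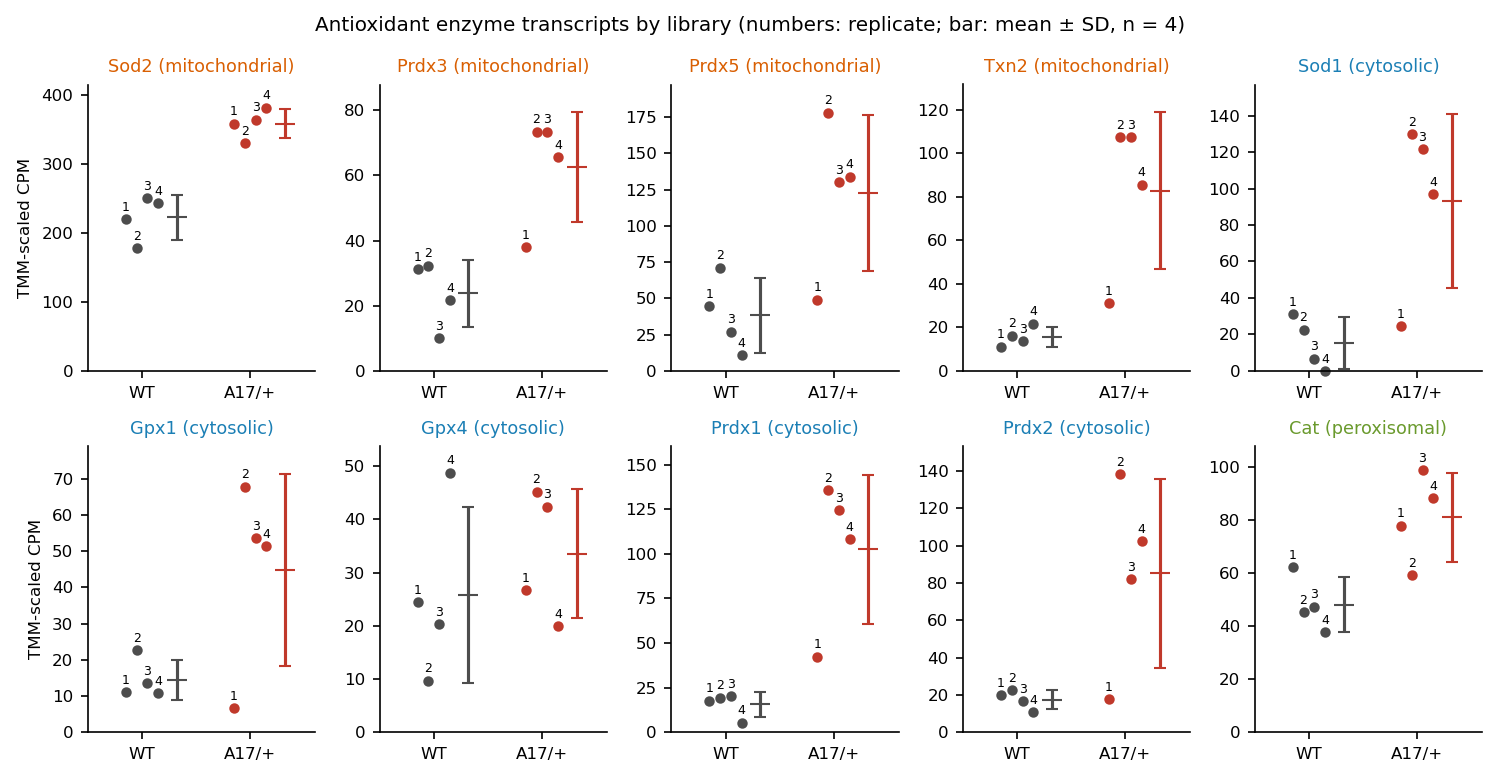
Level of each member in TMM-scaled CPM (vertical axis, from 0) in the 4 WT and 4 A17/+ libraries, numbered by replicate, with the mean and SD beside them. A17/+ 2, 3 and 4 stand above every WT library for 8 of the 10 members (at least 3 A17/+ libraries did so for 9 of them, and for 20.0% of all genes tested), while A17/+ 1 lies inside the WT range for Prdx5, Sod1, Gpx4 and Prdx2 and below it for Gpx1.

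**Figure D2:**
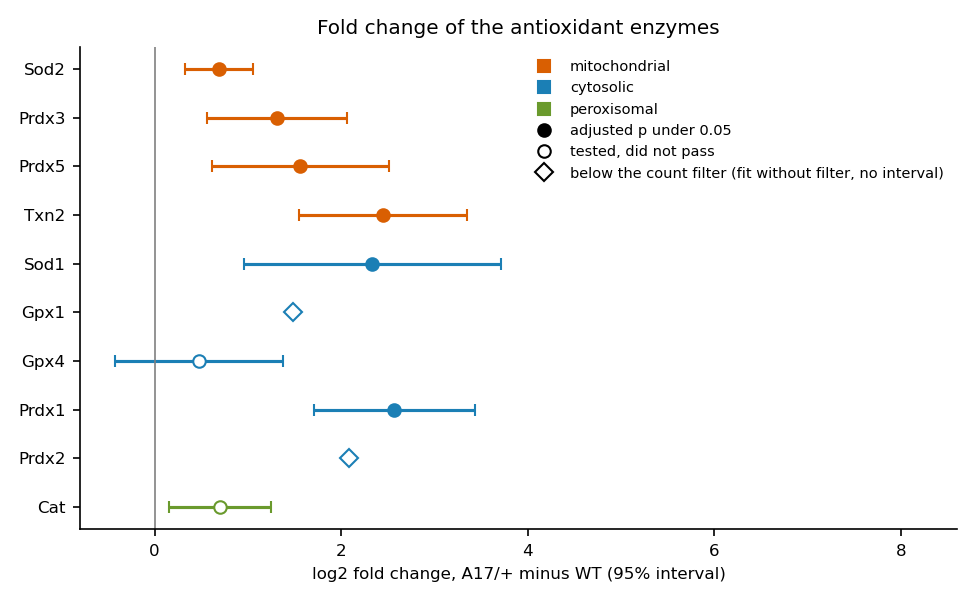
Log2 fold change of each member, A17/+ minus WT, with its 95% interval from the edgeR fit; filled points passed the threshold, and the diamonds, Gpx1 and Prdx2, lay below the count filter and come from the fit without it, drawn with no interval. All 10 points are on the positive side, and the interval of Gpx4 includes 0.

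Sod2, the manganese superoxide dismutase of the mitochondrial matrix, was the steadiest of the members. The gene (ENSMUSG00000006818, mm10 chromosome 17, 13006846 to 13040063, plus strand) had 221, 178, 250 and 244 CPM in WT 1 to 4 and 359, 330, 364 and 382 CPM in A17/+ 1 to 4. All 4 A17/+ libraries lay above all 4 WT libraries, and A17/+ 1 was level with the rest of its genotype. Of all genes tested, 8.57% had every A17/+ library above every WT library, and 14.6% had the groups apart on either side. Among the members this held for Sod2, Prdx3, Txn2 and Prdx1. Sod2 rose 1.61-fold (log2 fold change 0.69 ± 0.17 SE, edgeR adjusted p = 0.0175), from 223 ± 32.9 to 359 ± 21.4 CPM (SD, n = 4). Its adjusted p was 0.0915 without WT 2, 0.0596 without A17/+ 3 and 0.0786 without A17/+ 4.

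Sod1, the copper and zinc superoxide dismutase of the cytosol, had a larger and more uneven rise. The gene (ENSMUSG00000022982, chromosome 16, 90220754 to 90226329, plus strand) had 31.2, 22.6, 6.77 and 0 CPM in WT 1 to 4, from 14, 7, 2 and 0 counts. In A17/+ 1 to 4 it had 24.5, 130, 121 and 96.9 CPM, from 11, 46, 43 and 34 counts. A17/+ 1 lay inside the WT range and below WT 1, and the other A17/+ libraries lay at more than 3 times the highest WT value. Sod1 rose 5.04-fold (log2 fold change 2.33 ± 0.63 SE, edgeR adjusted p = 0.0423). That call was lost when any 1 of WT 2, WT 3, WT 4, A17/+ 2, A17/+ 3 or A17/+ 4 was left out (adjusted p from 0.0706 to 0.132), with log2 fold changes from 2.04 to 2.42. The log2 fold change was 2.94 without WT 1 and 3.32 without both libraries numbered 1. Sod1 shares 650 bases with Scaf4 on the opposite strand (113 counts in all). The sources used here do not say whether counting used the strand.

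The promoters of these dismutases are shown because the 2 enzymes do the same reaction in different compartments and both rose. The sequences are the 250 bases before the RefSeq start on GRCm38.p6, written 5′ to 3′ in the direction of the gene, at chr16:90220512-90220761 for Sod1 and chr17:13007589-13007838 for Sod2, both on the plus strand. Capitals mark matches, on either strand, to the SP1 box GGGCGG and to TGACNNNGC, the core of the antioxidant response element that the stress regulator NRF2 binds.
Sod1: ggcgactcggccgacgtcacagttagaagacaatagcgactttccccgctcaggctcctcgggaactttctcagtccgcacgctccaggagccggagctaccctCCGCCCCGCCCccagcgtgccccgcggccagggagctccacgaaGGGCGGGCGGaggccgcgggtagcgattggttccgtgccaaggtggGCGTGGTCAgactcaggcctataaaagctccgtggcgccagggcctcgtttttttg
Sod2: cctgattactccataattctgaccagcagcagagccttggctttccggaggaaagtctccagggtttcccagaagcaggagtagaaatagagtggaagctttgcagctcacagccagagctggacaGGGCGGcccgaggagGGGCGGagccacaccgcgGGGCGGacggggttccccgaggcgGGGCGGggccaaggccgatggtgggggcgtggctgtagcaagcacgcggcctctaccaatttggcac
Sod1 held 1 match to TGACNNNGC, on the opposite strand 56 to 48 bases before the start, and Sod2 held none. Both held 4 matches to GGGCGG, and in Sod1 neighbouring matches overlap. A match is a string of letters and not a measured site.

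Cat encodes catalase, the peroxisomal enzyme that splits hydrogen peroxide into water and oxygen. The gene (ENSMUSG00000027187, chromosome 2, 103453849 to 103485160, minus strand) had 62.4, 45.2, 47.4 and 37.9 CPM in WT 1 to 4 and 78.0, 59.3, 98.9 and 88.4 CPM in A17/+ 1 to 4. A17/+ 2, the library with the highest Sod1, was here the lowest of its genotype and lay below WT 1. Cat did not pass (log2 fold change 0.70 ± 0.26 SE, edgeR adjusted p = 0.102). The fit's 95% interval for this gene was 0.15 to 1.25, and its unadjusted p was 0.0158. With sample quality weights in limma-voom, an alternative chosen after the data were seen, its adjusted p was 0.0330.

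Both glutathione peroxidases had low counts, and neither was called with all 8 libraries and the count filter. Gpx1 (ENSMUSG00000063856, chromosome 9, 108338903 to 108340343, plus strand), the main glutathione-dependent peroxidase of the cytosol, was read 5, 7, 4 and 2 times in WT 1 to 4, and in A17/+ 1 to 4 it was read 3, 24, 19 and 18 times. In CPM that is 11.1, 22.6, 13.5 and 10.8 in WT and 6.69, 67.8, 53.7 and 51.3 in A17/+. A17/+ 1 was thus the lowest of all 8 libraries and A17/+ 2, 3 and 4 were the highest 3. Gpx1 reached the filter in 3 libraries, 1 fewer than it asks for, so its CPM were tested by exact permutation of the genotype labels (70 arrangements, two-sided, smallest possible p 0.0286), which gave p = 0.143. The log2 fold change in the fit without filter was 1.49. With A17/+ 1 left out, the same fit gave 1.81, and with a length trend removed from each library it gave 0.53.

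Gpx4 (ENSMUSG00000075706, chromosome 10, 80047166 to 80056439, plus strand), the enzyme that reduces lipid peroxides in membranes, had 24.5, 9.70, 20.3 and 48.8 CPM in WT 1 to 4 and 26.8, 45.2, 42.4 and 20.0 CPM in A17/+ 1 to 4. The groups overlap throughout, and the highest value of all, in WT 4, rests on 9 counts. The log2 fold change was 0.48 ± 0.43 SE (edgeR adjusted p = 0.527) with a 95% interval from −0.42 to 1.38, which does not show that the levels were alike. A near-identical copy, Gpx4-ps2, matches Gpx4 at 99.7% over 762 nt and had 13 counts, so the assignment of Gpx4 reads is uncertain.

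Peroxiredoxins reduce peroxides with a reactive cysteine, and 4 of them are members. Prdx1 (ENSMUSG00000028691, chromosome 4, 116685544 to 116700822, plus strand), a cytosolic form, had 17.8, 19.4, 20.3 and 5.42 CPM in WT 1 to 4 and 42.4, 136, 124 and 108 CPM in A17/+ 1 to 4. A17/+ 1 stood well above the highest WT library, yet far below the other A17/+ libraries. Prdx1 rose 5.93-fold, the largest change among the members tested (log2 fold change 2.57 ± 0.41 SE, edgeR adjusted p = 0.00278). It was called in each of the 21 alternatives in which it was tested, with log2 fold changes from 2.22 to 2.88. Prdx1 reached the filter through the A17/+ libraries alone, so this tally is a description only. GENCODE lists 3 processed copies of Prdx1 and 1 each of Sod1 and Prdx2 with at least 90% identity over 300 nt, so reads of these genes may be assigned unevenly.

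Prdx2 (ENSMUSG00000005161, chromosome 8, 84969587 to 84974834, plus strand), the other cytosolic form and an abundant protein of red blood cells, had 20.1, 22.6, 16.9 and 10.8 CPM in WT 1 to 4 and 17.8, 138, 81.9 and 103 CPM in A17/+ 1 to 4. A17/+ 1 lay inside the WT range, at 8 counts. Prdx2 also reached the filter in 3 libraries, and the exact permutation test gave p = 0.0857, with 85.2 ± 50.6 CPM in A17/+ against 17.6 ± 5.08 CPM in WT (SD, n = 4). The fit without filter gave a log2 fold change of 2.08, and 2.37 with A17/+ 1 left out. Its gene overlaps Junb by 351 bases and Rnaseh2a by 181 bases on the opposite strand.

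Prdx3 (ENSMUSG00000024997, chromosome 19, 60864051 to 60874556, minus strand), the peroxiredoxin of the mitochondrial matrix, had 31.2, 32.3, 10.2 and 21.7 CPM in WT 1 to 4 and 37.9, 73.4, 73.5 and 65.6 CPM in A17/+ 1 to 4. The groups did not overlap, but A17/+ 1 cleared WT 2 by only a few CPM. Prdx3 rose 2.48-fold (log2 fold change 1.31 ± 0.36 SE, edgeR adjusted p = 0.0277). The call was lost without WT 3 (0.103), WT 4 (0.0699), A17/+ 3 (0.0901) or A17/+ 4 (0.0767) as adjusted p.

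Prdx5 (ENSMUSG00000024953, chromosome 19, 6906697 to 6910106, minus strand), which is made as a mitochondrial form and a shorter form of other compartments, had 44.6, 71.1, 27.1 and 10.8 CPM in WT 1 to 4 and 49.0, 178, 130 and 134 CPM in A17/+ 1 to 4. A17/+ 1 lay inside the WT range and the other 3 above it. Prdx5 rose 2.95-fold (log2 fold change 1.56 ± 0.44 SE, edgeR adjusted p = 0.0424), and the call was lost without any 1 of WT 1, WT 3, WT 4, A17/+ 2, A17/+ 3 or A17/+ 4 (adjusted p from 0.0694 to 0.148). Counts per gene do not separate its mitochondrial from its other form. Prdx5 overlaps Trmt112 by 409 bases on the opposite strand (55 counts in all).

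The promoters of Prdx1 and Prdx3 give the same comparison for a cytosolic and a mitochondrial peroxiredoxin that both rose. The windows are chr4:116685349-116685598 for Prdx1 (plus strand) and chr19:60874539-60874788 for Prdx3 (minus strand), with capitals as before.
Prdx1: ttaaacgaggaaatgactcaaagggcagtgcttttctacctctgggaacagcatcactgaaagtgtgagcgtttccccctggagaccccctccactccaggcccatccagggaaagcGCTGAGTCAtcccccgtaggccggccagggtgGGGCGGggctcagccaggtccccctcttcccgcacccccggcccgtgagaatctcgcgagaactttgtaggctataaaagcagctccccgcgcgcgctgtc
Prdx3: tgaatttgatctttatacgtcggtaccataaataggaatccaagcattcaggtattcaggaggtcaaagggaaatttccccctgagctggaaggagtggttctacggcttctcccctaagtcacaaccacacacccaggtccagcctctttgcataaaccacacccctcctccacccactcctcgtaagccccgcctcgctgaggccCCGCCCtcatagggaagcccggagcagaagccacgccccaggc
Prdx1 held 1 match to TGACNNNGC, on the opposite strand 133 to 125 bases before the start, and Prdx3 held none. Across the 10 members, RefSeq gave 13 such windows, 4 of them for Gpx4. TGACNNNGC was in 2 of the 13, both of cytosolic members, against 10.2% of the 32851 windows of all genes. GGGCGG was in 10 of the 13, which cover 8 of the 10 members, against 32.7% of all windows. The 10 include overlapping windows of Gpx4 that share sites, so they are not 10 separate promoters. The core of the motif of NRF1, a regulator of nuclear genes for mitochondria, was in 2 windows, which overlap and share 1 site upstream of Gpx4, against 3.74%. No mitochondrial member had that string in its window.

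Txn2 encodes thioredoxin 2, the small protein that hands electrons to Prdx3 in the mitochondrial matrix. The gene (ENSMUSG00000005354, chromosome 15, 77915047 to 77929006, minus strand) had 11.1, 16.2, 13.5 and 21.7 CPM in WT 1 to 4, from 4 or 5 counts in each. In A17/+ 1 to 4 it had 31.2, 107, 107 and 85.5 CPM, from 14, 38, 38 and 30 counts. All A17/+ libraries lay above all WT libraries, with A17/+ 1 closest to WT. Txn2 rose 5.44-fold (log2 fold change 2.44 ± 0.43 SE, edgeR adjusted p = 0.00350), the largest change of a mitochondrial member. It was called with each single library left out, and missed the threshold only with limma-voom (adjusted p = 0.0560) among the 21 alternatives in which it was tested. Txn2 also reached the filter through the A17/+ libraries alone, so this tally is a description only.

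Summed over a compartment, cytosolic members differed more between the genotypes than mitochondrial ones. No test was made of these sums, because the genes were listed with results of these data known. The 4 mitochondrial members together had 308, 297, 301 and 298 CPM in WT 1 to 4 and 477, 689, 675 and 667 CPM in A17/+ 1 to 4, a ratio of means of 2.08. The 5 cytosolic members had 105, 97.0, 77.8 and 75.9 CPM in WT and 118, 517, 424 and 379 CPM in A17/+, a ratio of means of 4.05. The mitochondrial sum of A17/+ 1 lay between the genotypes, whereas its cytosolic sum was close to the highest WT library.

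The ratio of mitochondrial to cytosolic transcripts was 2.94, 3.07, 3.87 and 3.93 in WT 1 to 4. It was 4.04 in A17/+ 1, and 1.33, 1.59 and 1.76 in A17/+ 2 to 4. A17/+ 1 thus had the highest ratio of all libraries and the other 3 the lowest. Sod2 made up 59.8% to 83.2% of the mitochondrial sum in WT and 48.0% to 75.2% in A17/+. With Sod2 left out the ratio was 0.83, 1.23, 0.65 and 0.71 in WT and 1.00, 0.69, 0.73 and 0.75 in A17/+, so that the groups overlapped. The difference between compartments in these sums therefore rests on Sod2, which was high in WT and changed by a small factor.

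**Figure D3:**
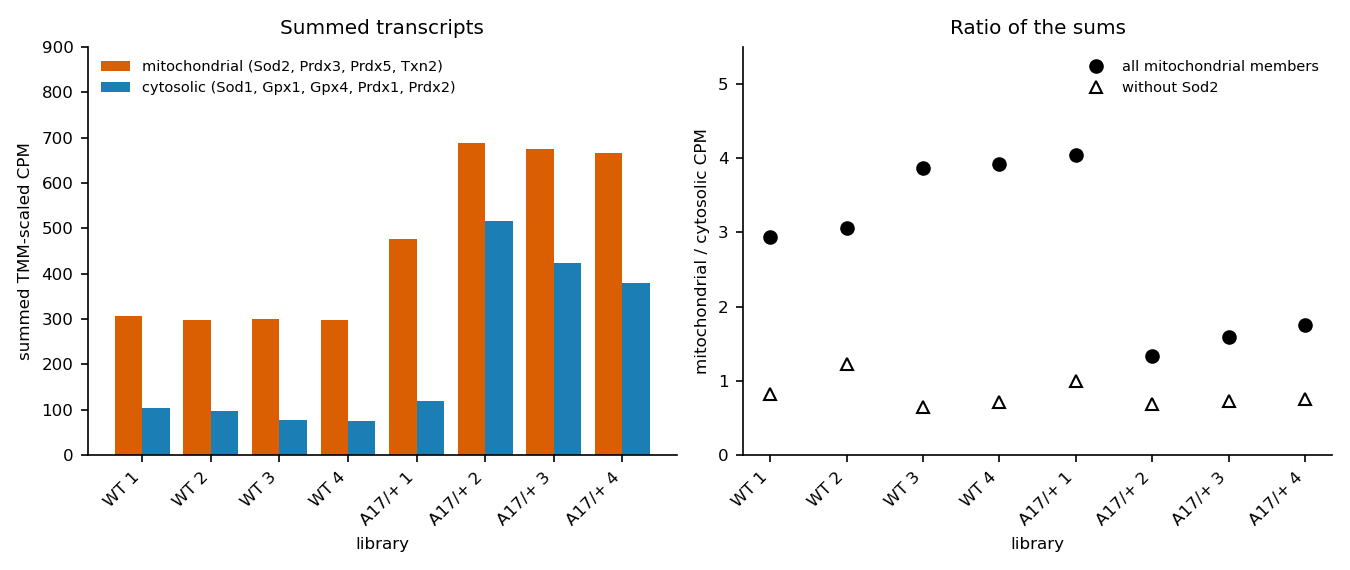
Left, summed TMM-scaled CPM of the mitochondrial and cytosolic members in each library; right, the ratio of the sums with all mitochondrial members (filled circles) and without Sod2 (open triangles). With Sod2 the ratio is 2.94 to 4.04 in WT 1 to 4 and A17/+ 1 and 1.33 to 1.76 in A17/+ 2 to 4, and without Sod2 it runs from 0.65 to 1.23 with no gap between the genotypes.

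Gene by gene, the compartments overlapped. In the fit without filter, log2 fold changes ran from 0.64 (Sod2) to 2.37 (Txn2) among mitochondrial members, with a median of 1.37, and from 0.41 (Gpx4) to 2.50 (Prdx1) among cytosolic ones, with a median of 2.08. The difference in medians was −0.72, and it lay between −1.01 and −0.28 over 24 alternatives. Pairs of like enzymes gave values in the same direction, with 2.26 for Sod1 against 0.64 for Sod2, and 2.50 for Prdx1 and 2.08 for Prdx2 against 1.25 for Prdx3. The other mitochondrial members, Prdx5 (1.49) and Txn2 (2.37), lay among the cytosolic genes. With a length trend removed from each library, the difference in medians was −0.29. The filtered fit with that trend removed gave 1.20 for Sod1 against 0.79 for Sod2, and 2.28 for Prdx1 against 0.99 for Prdx3.

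A17/+ 1 was the lowest library of its genotype for 7 of the 10 members, all but Sod2, Cat and Gpx4. Relative to the WT mean, A17/+ 1 was at 1.61 for Sod2, 1.62 for Cat and 1.59 for Prdx3, at 2.69 for Prdx1 and 2.00 for Txn2, and at 1.01 for Prdx2 and 0.46 for Gpx1. A17/+ 2 to 4 together were at 1.61 for Sod2 and 1.70 for Cat, but at 7.80 for Prdx1, 6.40 for Txn2, 6.11 for Prdx2 and 3.96 for Gpx1. For Sod2 and Cat, then, A17/+ 1 lay among the other A17/+ libraries, and for Prdx1, Txn2, Sod1, Prdx3 and Prdx5 it lay below all 3 of them. Without A17/+ 1, 8 members rose, Gpx1 and Prdx2 being added to the 6. Gpx1 and Prdx2 reached the filter's 24.6 CPM in A17/+ 2, 3 and 4 alone, so they entered that fit through the group where they are high. Calls over all genes went from 453 of 5066 (321 higher) to 771 of 5491 (586 higher) without A17/+ 1. The count of 8 is thus a description and no support for a change of the group.

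The size of the change went with transcript length across all genes tested. Of 291 genes with transcripts under 1000 nt (median over their basic GENCODE coding transcripts), 34.4% were called higher in A17/+ (edgeR adjusted p under 0.05). The share called higher was 13.2% of 878 genes of 1000 to under 2000 nt and 4.23% of 1963 genes of 2000 to under 4000 nt. It was 1.14% of 1928 genes of 4000 nt or more. Genes called lower numbered 5, 17, 42 and 67, from the shortest class to the longest. Sod1 (641 nt), Prdx5 (755 nt), Gpx1 (787 nt) and Gpx4 (959 nt) fall in the shortest class, where Sod1 and Prdx5 rose. Prdx3 (1478 nt), Txn2 (1538 nt), Prdx2 (1545 nt), Prdx1 (1586 nt) and Cat (1696 nt) fall in the next class, where Prdx3, Txn2 and Prdx1 rose. Sod2, with an annotated transcript of 5861 nt, is among the few genes called higher in the longest class.

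With a length trend removed from each library, Prdx1 (log2 fold change 2.28), Txn2 (2.13) and Sod2 (0.79) were still called. Prdx3 (0.99, adjusted p = 0.0733), Sod1 (1.20, 0.100) and Prdx5 (0.57, 0.282) then missed the threshold, and Gpx4 turned to −0.24 (0.772). Gpx1, below the filter, moved from 1.49 to 0.53. Transcripts under 1000 nt took 6.40% to 8.48% of counts in WT, 8.35% in A17/+ 1 and 10.4% to 12.5% in A17/+ 2 to 4, the same grouping of libraries as for Sod1, Gpx1 and Prdx2. The part of this share in the members' changes was not tested beyond the fit with the trend removed.

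**Figure D4:**
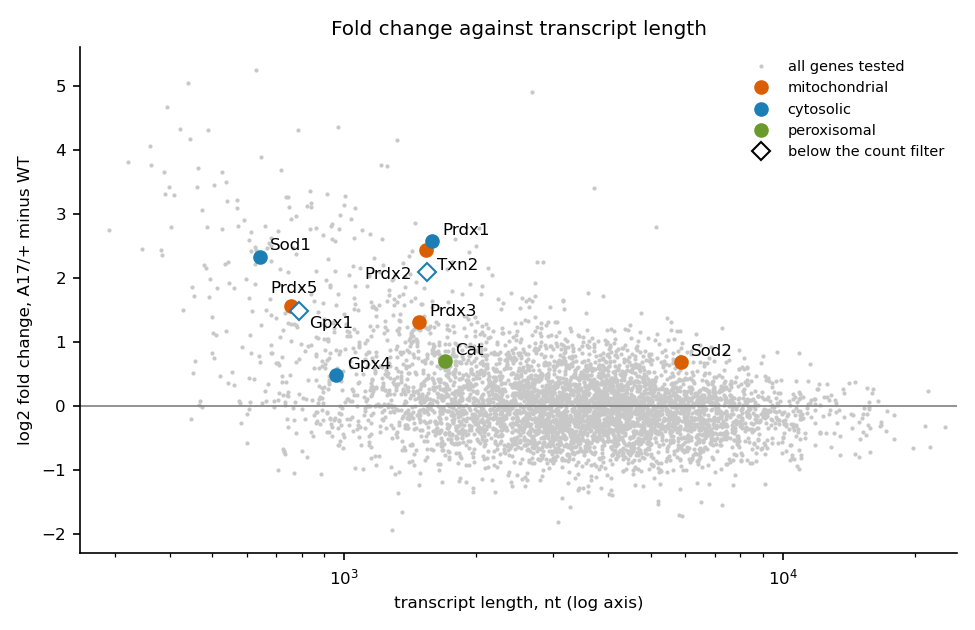
Log2 fold change, A17/+ minus WT, against transcript length in nt (log axis) for the 5060 tested genes with an annotated length (grey) and the members, with open diamonds for Gpx1 and Prdx2, taken from the fit without filter. Prdx1, Txn2 and Prdx2 lie above most genes of their length, Gpx4 lies low among short transcripts, and Sod2 lies at the upper side of the long ones.

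Respiratory chain transcripts were higher in every A17/+ library than in any WT library. Genes of the nuclear-encoded respiratory chain and ATP synthase took 0.793% to 0.978% of counts in WT, 1.16% in A17/+ 1 and 2.64%, 2.101% and 2.14% in A17/+ 2 to 4. Transcripts of the mitochondrial genome took 4.17% to 6.43% in WT and 7.24% to 11.0% in A17/+, where A17/+ 1 had 8.36% and A17/+ 2 the least. The mitochondrial members thus stood beside higher respiratory transcripts of both genomes in A17/+, and whether they changed relative to those was not tested.

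Prdx2, Cat and Gpx1 are also abundant in red blood cells, whose marker levels were highest in A17/+ 2 to 4. Of 10 markers, 7 were among the genes counted, and their sum was 20.1 to 35.5 CPM in WT and 102, 1333, 345 and 425 CPM in A17/+ 1 to 4. In A17/+ 2 to 4 nearly all of it was globin. Alas2, the first enzyme of haem synthesis in red cell precursors, had 0 to 5 counts in WT and 2 to 11 in A17/+. Prdx2 was highest in A17/+ 2, the library with the most globin, while Cat was lowest there among A17/+ libraries. The part of red cells in the level of Prdx2 or Gpx1 was not tested.

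Of the 12 skeletal muscle markers, all tested, 7 were called higher, 9 had an unadjusted p under 0.05, and their median log2 fold change was 0.74. Over all 5066 genes tested by edgeR, 6.34% were called higher and 1273 genes had an unadjusted p under 0.05. Sums of macrophage markers were 142 to 408 CPM in WT and 415 to 511 CPM in A17/+, with 0 of 3 tested markers called by edgeR (1 at an unadjusted p under 0.05) and Cd14 at 0 in WT. Fibroblast markers had 474 to 672 CPM in WT and 649 to 1231 CPM in A17/+, with 2 of 6 called higher. Adipocyte markers had 9.70 to 51.3 CPM in WT and 107 to 167 CPM in A17/+, with 1 of 2 called higher, and Retn and Cfd at 0 in WT. Smooth muscle markers had 501 to 596 CPM in WT and 488 to 763 CPM in A17/+, with 1 of 3 tested called higher and Cnn1 at 0 in WT. Endothelial (385 to 417 CPM in WT and 401 to 483 CPM in A17/+) and tongue epithelium markers (8143 to 8633 CPM in WT and 6911 to 15340 CPM in A17/+) had 0 called of 6 and 7 by edgeR, with 0 and 3 at an unadjusted p under 0.05. No salivary marker passed the filter. The part of these cell types in the members' levels was not tested.

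The members were set beside 84 other genes of antioxidant defence in 7 lists. Of these, 42 passed the count filter, 9 rose and 0 fell, and their median log2 fold change was 0.35 against 0.01 over all genes tested. Among all genes tested, 6.34% were called higher. Selenow and Mgst3 reached 24.6 CPM in no WT library, so they passed the filter through the A17/+ libraries alone, and the count of 9 is a description and no support for a change of the lists.

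Among other scavenging enzymes 2 of 5 tested genes rose. Selenow, a small selenoprotein of muscle, went from 10.2 ± 2.74 to 105 ± 56.3 CPM (SD, n = 4), a log2 fold change of 3.27 ± 0.54 SE (edgeR adjusted p = 0.00398), with 26.8 CPM in A17/+ 1 and at most 13.4 CPM in WT, below the filter's level. It was not called with limma-voom (adjusted p = 0.0637). Park7, the oxidation sensor DJ-1, rose by 1.96 on the log2 scale (adjusted p = 0.0151), and A17/+ 1 lay inside its WT range. Its adjusted p was 0.0648 without WT 3, and the call was also lost with limma-voom and with the length trend removed (up to 0.0888). The list's median was 0.19.

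In the thioredoxin and glutaredoxin system 2 of 8 tested genes rose, with a median of 0.50. Txnip, which binds and restrains thioredoxin, rose 2.01-fold from 72.9 ± 8.76 to 148 ± 29.1 CPM (edgeR adjusted p = 0.0110, 0.0531 without WT 3). A17/+ 1, at 149 CPM, did not stand apart for this gene. Txnl1, a thioredoxin-like protein, had a log2 fold change of 1.26 and an adjusted p of 0.0471, and the call was lost with 6 of the 8 libraries left out in turn (all but WT 1 and A17/+ 1, adjusted p up to 0.152). Its call was also lost with library totals only, limma-voom, a mean count of 10 or more, the length trend removed and thinned counts, and held in 11 of 22 alternatives.

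Glutathione genes had 3 of 6 tested members higher and a median of 1.14. Mgst3, a membrane-bound glutathione transferase and peroxidase, rose 6.71-fold from 10.7 ± 9.08 to 88.1 ± 43.6 CPM (edgeR adjusted p = 0.00944, 0.0544 without WT 3). Its highest WT library, at 20.1 CPM, lay below the filter's level, and limma-voom did not call it. Gsto1, a transferase of the omega class, rose 2.65-fold (adjusted p = 0.00873) and Gstm1, of the mu class, 3.67-fold (adjusted p = 0.0175). The call for Gstm1 was lost without WT 3 or without A17/+ 3 (adjusted p up to 0.0778), and also with limma-voom and with the length trend removed. Gsto1 was called with each library left out.

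Of 6 tested genes of NADPH supply, which feeds the thioredoxin and glutathione reductases, 1 rose. This was Taldo1, transaldolase of the pentose phosphate pathway, with a log2 fold change of 1.57 ± 0.34 SE (edgeR adjusted p = 0.00914). Of 9 tested genes of NRF2, its regulators and its targets, 1 rose, and the list's median was −0.11. It was Fth1, the ferritin heavy chain that stores iron, which went from 149 ± 44.3 to 544 ± 200 CPM (log2 fold change 1.85 ± 0.32 SE, adjusted p = 0.00486). Taldo1 and Fth1 were called with each library left out.

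No gene passed in the remaining lists, by edgeR over all genes. The list of metallothioneins and metal supply also holds sestrins and mitochondrial genes. Its 5 tested genes were Slc31a1, Sesn1, Sesn3, Ppargc1a and Ucp2, of which 1 had an unadjusted p under 0.05. The metallothioneins themselves lay below the filter and were not tested. An unadjusted p under 0.05 was reached by 0 of 3 genes among NADPH oxidases and other oxidant sources, and by 1273 of all 5066 genes tested. Ucp2, a carrier of the inner mitochondrial membrane, had a log2 fold change of 0.81 (adjusted p = 0.156), and Ppargc1a, a coactivator of mitochondrial biogenesis, had 0.40 (0.250). Cybb, the catalytic subunit of the phagocyte oxidase, had −0.31 (0.436), and Maob, a monoamine oxidase of the mitochondrial outer membrane, had 0.33 (0.667).

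**Figure D5:**
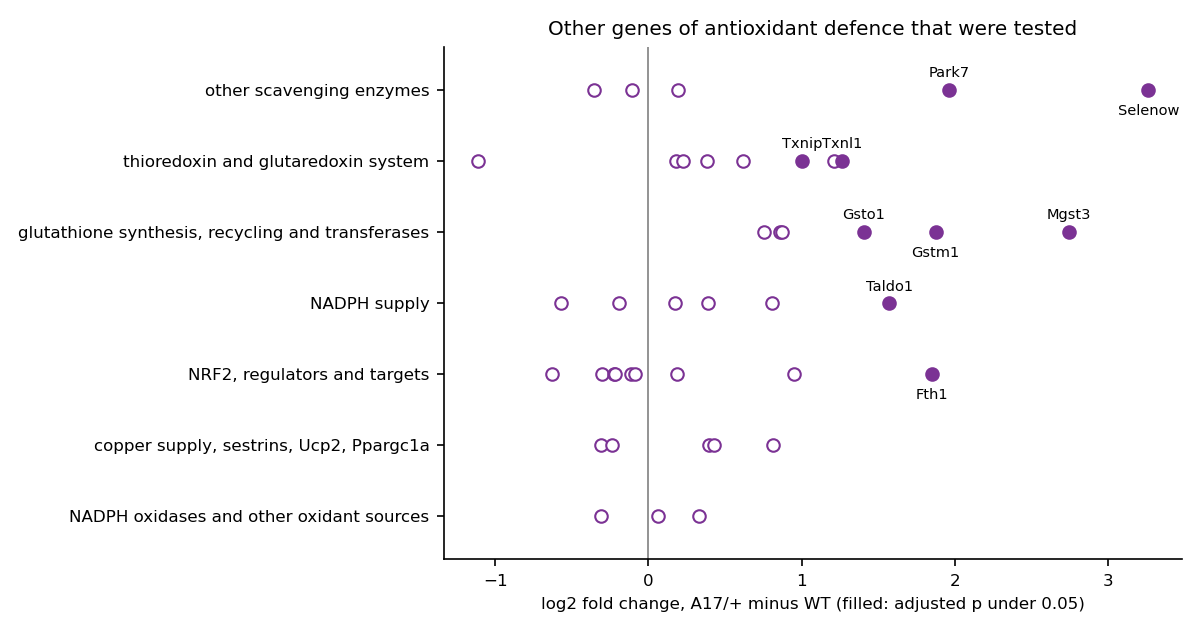
Log2 fold change, A17/+ minus WT, of the 42 tested genes in 7 lists of antioxidant defence, with 1 point per gene, filled and named where the adjusted p is under 0.05. The 9 named genes all lie above 1, and the rows of copper supply, sestrins, Ucp2 and Ppargc1a and of oxidant sources hold no filled point; metallothioneins were below the filter and are not drawn.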

How the data were processed

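RNA was measured with mcSCRB-seq, a 3' method in which molecular identifiers let each RNA molecule be counted once. Per the submitters' processing notes, cutadapt 2.10, STAR 2.7.5a, UMI-tools 1.1.1, HTSeq and the build mm10 were used; settings, strand and annotation are not given in the sources used here. The authors deposited raw counts per Ensembl gene, which were analysed here, and log2 values for 10709 genes, which were used as deposited in 1 alternative only.

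Symbols, positions and lengths came from GENCODE M21 (19675 of 19857 identifiers matched), and promoters from RefSeq GRCm38.p6. Genes were filtered with filterByExpr (minimum count 10, total 15; 24.6 CPM in at least 4 libraries), which kept 5066, scaled by TMM and tested for genotype alone by edgeR's robust quasi-likelihood method (edgeR 4.0.16, R 4.3.3). Benjamini-Hochberg adjustment ran over all genes tested (threshold 0.05). SE and intervals come from that fit. The labels give 4 mice per genotype. Libraries held 205696 to 485326 counts. In counts simulated at this depth (5180 genes), the test recovered 43% of 100 genes changed 2-fold and 96% of 100 changed 4-fold. These rates are not split by expression level, so they need not hold for members near or below 24.6 CPM. They also need not hold for genes in which a library departs from the rest of its genotype.

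The members, lists and tests were chosen with earlier results of these data known. Named genes are all members and, per list, up to 3 genes past the threshold with the smallest p, or up to 2 as values only. Alternatives used DESeq2 1.42.0, limma 3.58.1, other scalings and filters, a length trend (loess), thinned counts, the replicate number as a block and left-out libraries.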

Additional observations from a re-analysis of the deposited data

Results flagged for a closer look

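A library was listed here where its distance from the nearest other library of its genotype was above Dixon's 95% limit relative to the group's range. Of 26 groups of 4 screened, chance alone would list about 1 in 20. The level of Prdx1 in WT 4 was 5.42 CPM, from 1 count, against 17.8 to 20.3 CPM in the other WT libraries. The summed level of the mitochondrial members in A17/+ 1 was 477 CPM, against 667 to 689 CPM in the other A17/+ libraries. The ratio of mitochondrial to cytosolic members was 4.04 in A17/+ 1, against 1.33 to 1.76 in the others. The last 2 values share the same library and the same mitochondrial sum.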

How the results depend on the processing

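Prdx1 kept its call in all 21 alternatives that tested it and Txn2 in 20 of 21. Both reached the filter through the A17/+ libraries alone, and neither was tested with counts thinned to the smallest library. Their tallies are thus a description and no support for a change. Sod2 kept its call in 19 of 22, Prdx3 in 14 of 21, Prdx5 in 13 of 22 and Sod1 in 13 of 21. Gpx4 was called in 0 of 18 and Cat in 1 of 22. With no filter, Gpx1 and Prdx2 were called too, giving 8 members among 853 of 19857 genes. Prdx2 was also called with a mean count of 10 or more and with limma-trend on the deposited log2 values. Gpx1 and Prdx2 reached 24.6 CPM in A17/+ 2, 3 and 4 alone. The only change of sign was Gpx4 with the length trend removed (−0.24). The 6 members called became 2 with limma-voom, 3 with the length trend removed and 2 with counts thinned to the smallest library, where only 3 members could be tested, and 2 to 8 with 1 library left out (3 without WT 3 or WT 4, 2 without A17/+ 3 or A17/+ 4). The 453 genes called became 233 with limma-voom, 864 with sample weights, 853 with no filter, 1025 without both libraries numbered 1 and 808 with limma-trend on the deposited log2 values, and ran from 210 (without WT 3) to 890 (without WT 1). Without A17/+ 1, A17/+ 3 or A17/+ 4 they were 771, 247 and 232. With library totals only, the median of all genes moved to −0.11 and the split of 321 higher and 132 lower became 279 and 289; with the length trend removed it was 256 and 207, with sample weights 499 and 365, and all 10 members stayed higher under each of these, except Gpx4 with the length trend removed. The difference in medians between compartments was −0.32 with limma-voom, −0.37 with sample weights, −0.29 with the length trend removed and −0.28 with limma-trend; with 1 library left out it ran from −0.85 to −0.54. The cause of these shifts was not tested.

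With the replicate number as a block, 410 genes and 5 members were called, Prdx3 having an adjusted p of 0.0510. Same-numbered libraries did not deviate together (r from −0.159 to 0.072), and 0 of 8 libraries correlated best with their own number. Gpx1, Gpx4 and Prdx2 have 2 to 11 counts in each WT library, and Txn2, Prdx1 and Sod1 have as few or fewer counts in some WT libraries. Prdx3 had 3 counts in WT 3 and 4 in WT 4. Prdx5 had 8 counts in WT 3 and 2 in WT 4, and Cat had 7 in WT 4.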

Other observations

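The genes in these observations were chosen after their values were seen. Txnrd2, the mitochondrial reductase that recharges Txn2, had a negative log2 fold change: its counts were 12, 15, 25 and 20 in the WT libraries against 13, 11, 12 and 7 in A17/+ 1 to 4, with −1.12 ± 0.39 SE, which did not pass (edgeR adjusted p = 0.0839). Txn1, the cytosolic thioredoxin that serves Prdx1 and Prdx2, lay below the filter, with 2, 6, 1 and 1 counts in WT and 6, 37, 27 and 29 in A17/+. Prdx6, the peroxiredoxin that uses glutathione, had a log2 fold change of −0.10 ± 0.22 SE (edgeR adjusted p = 0.816), at a mean of 296 CPM (WT) and 280 CPM (A17/+). Nfe2l2, which encodes NRF2, had −0.22 ± 0.25 SE (edgeR adjusted p = 0.633).

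The metallothioneins Mt1 and Mt2, small proteins that bind zinc and copper and scavenge radicals, had few counts in WT. Mt1 was counted 1, 1, 1 and 0 times in WT 1 to 4, and 7, 83, 29 and 26 times in A17/+ 1 to 4. Mt2 had 6, 1, 1 and 0 counts in WT and 6, 79, 30 and 30 in A17/+. Both lay below the filter and are given as values only, and for both A17/+ 2 was the highest library and A17/+ 1 the lowest of its genotype.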
